A study of Rattus norvegicus albus with 14 samples.

Results

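The genes described here are 4 muscle ubiquitin ligases, Fbxo32 (atrogin-1 or MAFbx), Trim63 (MuRF1), Trim55 (MuRF2) and Trim54 (MuRF3), and 3 FoxO transcription factors, Foxo1, Foxo3 and Foxo4. They were taken by symbol from the count tables, 1 row per gene ID, and are 7 of the 32545 genes counted. All 7 passed the filter on low counts, which left 15655 genes for testing. The gene IDs are ENSRNOG00000006738 for Fbxo32, ENSRNOG00000016543 for Trim63, ENSRNOG00000006146 for Trim54 and ENSRNOG00000012723 for Trim55. They are ENSRNOG00000013397 for Foxo1, ENSRNOG00000000299 for Foxo3 and ENSRNOG00000033316 for Foxo4.

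Ubiquitin ligases choose the proteins that receive ubiquitin and go to the proteasome. Fbxo32 encodes an F-box subunit of an SCF ligase, and the MuRF proteins are RING finger ligases that bind titin, microtubules and other parts of the sarcomere. Fbxo32 and Trim63 are the classical atrophy genes of skeletal muscle and heart, and FoxO factors are known to switch them on. Insulin signalling through AKT phosphorylates FoxO proteins and moves them out of the nucleus, so a FoxO transcript level does not measure FoxO activity.

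RNA was sequenced from ventricular heart muscle cells of 1-day-old Sprague-Dawley rats, plated as a pool after a preplating step against fibroblasts and kept in a serum-free medium that contains insulin. The drug was rosiglitazone, an agonist of the nuclear receptor PPARγ, at 10 µmol/L in 1% DMSO. The groups are 1% DMSO for 0.5 h (1 library) and rosiglitazone with DMSO for 0.5 h, 24 h or 48 h (2 libraries each), so 14 deposited samples form 7 libraries of 2 splits. Vehicle cultures of 24 h and 48 h were not analysed here, so time with the drug and time in culture cannot be told apart. The labels tie the libraries of a group to no separate cultures or animals, and the p-values below therefore cover library-to-library spread that could be technical.

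The libraries held 10886559 to 28074620 counts, and the second 48 h library was the shallowest. Cardiomyocyte marker RNA differed strongly between libraries. The summed level of 13 cardiomyocyte markers was 8698.7 CPM (counts relative to the scaled library size) in DMSO, 15389.2 and 14814.3 at 0.5 h of rosiglitazone, 12684.7 and 2633.5 at 24 h, and 274.9 and 1597.5 at 48 h. None of the 13 was at 0 in any library. Of the 9 matched skeletal muscle markers, Myod1, Myf5 and Pax7 were at 0 in all 7 libraries. The others were counted in some or all libraries, with Tnnt3 at 1.46 to 14.7 CPM and Acta1 at 6.15 to 119.9 CPM. The 9 fibroblast markers summed to 17530.4 to 51795.6 CPM, with the lowest value in the first 48 h library and with Mfap5 at 0 in 3 late libraries. These markers did not move together. In the first 48 h library Col1a1 was at 4749.4 CPM, against 26084.8 to 27687.2 in the 0.5 h libraries. Dcn was at 8476.1 CPM there, against 807.8 to 993.7, so the sum does not rank the libraries by fibroblast content. In RNA from a whole culture, fewer cardiomyocytes and less RNA of these genes per cardiomyocyte cannot be told apart.

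By the mean of their libraries the 3 MuRF genes stood highest at 24 h and Fbxo32 lowest at 48 h, and no FoxO transcript passed the threshold in any of the 5 comparisons. Trim54 was at 56.2 CPM in DMSO, 65.3 and 82.4 at 0.5 h of rosiglitazone, 297 and 285 at 24 h, and 60.5 and 142 at 48 h. The 24 h libraries were nearly equal and far above all others, while the 48 h libraries lay 2.35-fold apart, the lower of them inside the range of the 0.5 h libraries. Over the 4 late libraries (24 h and 48 h) against the 3 libraries of 0.5 h, Trim54 rose by 1.35 ± 0.32 on the log2 scale (SE; 2.54-fold), with an adjusted p of 0.0372 in edgeR's quasi-likelihood test with Benjamini-Hochberg adjustment over all genes. In this comparison 11.4% of all genes passed, 4.11% as higher and 7.29% as lower, and Trim54 was the 1 gene of the 7 that passed. The adjusted p was 0.0988 without the DMSO library, 0.149 and 0.101 without the first and the second 0.5 h rosiglitazone library, 0.0616 without the second 48 h library, and 0.0688 with the libraries fitted as 2 groups, late and early. It was 0.0300 to 0.0344 without any of the other late libraries.

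**Figure D1:**
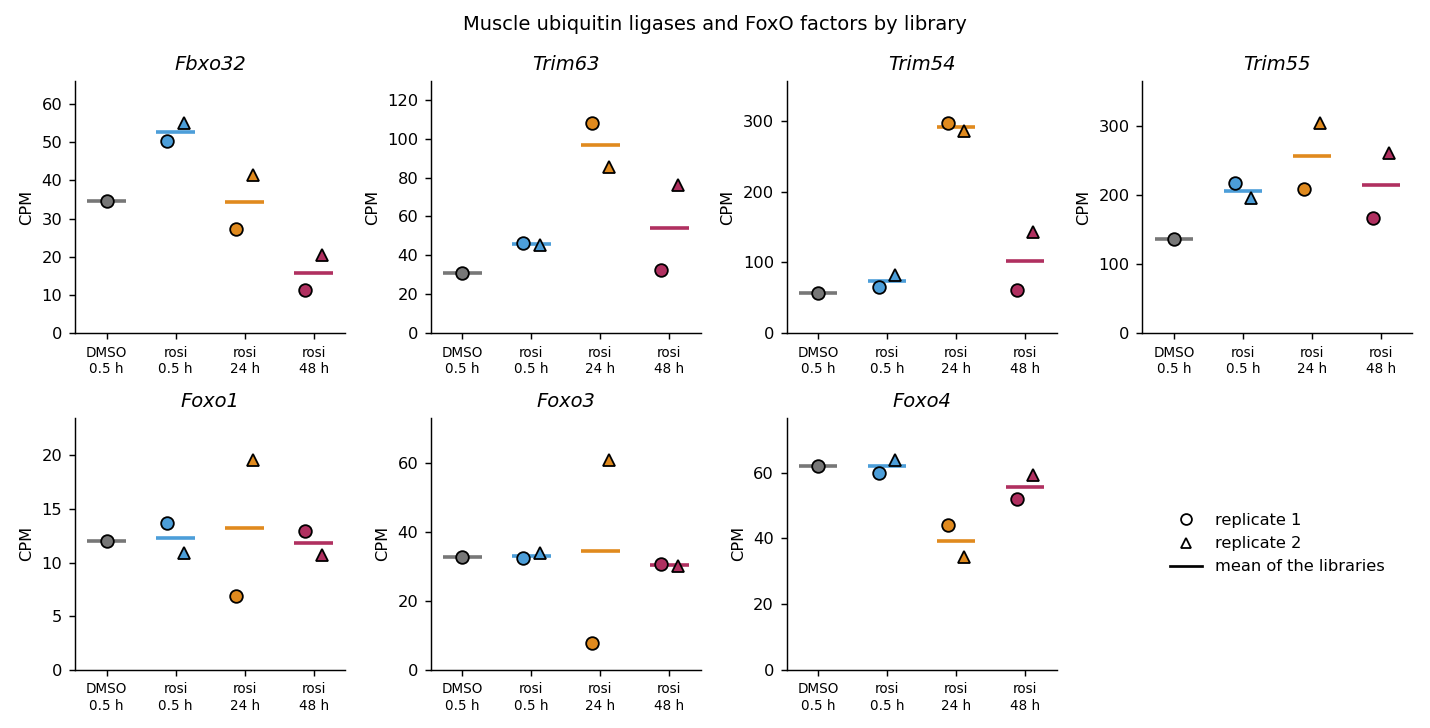
Level of each of the 7 genes in CPM (vertical axis, starting at 0) in the 7 libraries by treatment and time; circles are replicate 1, triangles replicate 2 and bars the mean of the libraries. Trim54 is at 297 and 285 CPM at 24 h, Fbxo32 at 11.2 and 20.4 CPM at 48 h, and Foxo3 at 7.91 and 61.1 CPM in the 24 h libraries.

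Within the rosiglitazone libraries, Trim54 was 1.98 ± 0.41 log2 units higher at 24 h than at 0.5 h (3.94-fold, adjusted p = 0.105) and differed by -1.52 ± 0.41 at 48 h against 24 h (2.87-fold, adjusted p = 0.332). Neither difference passed the threshold. That for 24 h against 0.5 h was past it with DESeq2 (adjusted p = 0.000837) and without the filter on low counts (adjusted p = 0.0274), and that for 48 h against 24 h with DESeq2 (adjusted p = 0.0294). Of all genes, 0.0958% passed between 24 h and 0.5 h, and 0% between 48 h and 24 h. Both libraries of 24 h lay above both of 0.5 h for 21.2% of all genes, as for Trim54 and Trim63, and below for 28.9%, as for Fbxo32 and Foxo4. From 24 h to 48 h the libraries moved down without overlap for 14.6% of all genes, as for Trim54, Trim63 and Fbxo32, and up for 14.5%, as for Foxo4. At 48 h against 0.5 h the difference of Trim54 was 0.45 ± 0.40 log2 units (adjusted p = 0.547), and it turned to -0.29 without the second 48 h library.

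Trim63, the MuRF1 gene, had the same order of times as Trim54 at smaller size. It was at 30.8 CPM in DMSO, 46.6 and 45.5 at 0.5 h, 108 and 85.3 at 24 h, and 32.2 and 76.2 at 48 h. Both 24 h libraries were above all others, as for Trim54. The share of all genes with this pattern was not counted. The first 48 h library was down at the level of the 0.5 h libraries. The late libraries were 0.84 ± 0.32 log2 units above the early ones (1.79-fold, adjusted p = 0.135), and 24 h was 1.07 ± 0.42 above 0.5 h (2.10-fold, adjusted p = 0.280); neither passed. At 48 h the difference from 0.5 h was 0.23 ± 0.41 (adjusted p = 0.790), and -0.51 without the second 48 h library.

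Trim55, the MuRF2 gene, differed least over the rosiglitazone times among the ligases. It was at 135 CPM in DMSO, 217 and 195 at 0.5 h, 208 and 304 at 24 h, and 167 and 261 at 48 h. All 3 rosiglitazone times overlapped, with differences of 0.31 ± 0.32 log2 units for 24 h against 0.5 h (adjusted p = 0.668) and 0.06 ± 0.32 for 48 h against 0.5 h (adjusted p = 0.952). In the RefSeq gene table for the assembly GRCr8, Trim55 overlaps the long noncoding RNA gene LOC120100781, and whether the counting used strand is not given in the sources used here. The other 6 genes overlap no gene in that table.

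Fbxo32, the atrogin-1 gene, was lowest at the last time. It was at 34.7 CPM in DMSO, 50.2 and 55.0 at 0.5 h, 27.2 and 41.4 at 24 h, and 11.2 and 20.4 at 48 h. The order of the rosiglitazone times was 0.5 h, 24 h, 48 h, with no overlap between neighbouring times; both 48 h libraries were below both 0.5 h libraries, as for 34.4% of all genes. From 0.5 h to 48 h Fbxo32 fell by 1.74 ± 0.40 on the log2 scale (3.34-fold, adjusted p = 0.0472), again the 1 gene of the 7 past the threshold, where 6.59% of all genes passed and 4.62% passed as lower. This call lies close to the threshold: the adjusted p was 0.0561 without the DMSO library, 0.212 and 0.228 without the first and the second 0.5 h rosiglitazone library, and 0.202 and 0.0694 without the first and the second 48 h library. It was 0.0501 with DESeq2 size factors in the same test and 0.00200 with DESeq2 as the test. The fall itself was 1.40 to 2.24 log2 units whichever library was left out.

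The neighbouring steps of Fbxo32 did not pass, at -0.62 ± 0.39 log2 units from 0.5 h to 24 h (adjusted p = 0.472) and -1.12 ± 0.39 from 24 h to 48 h (adjusted p = 0.486). The late libraries together differed from the early ones by -0.98 ± 0.29 log2 units (adjusted p = 0.0734), and this difference was past the threshold with DESeq2 (adjusted p = 0.0289), without the filter on low counts (0.0429) and without the second 24 h library (0.0212).

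**Figure D2:**
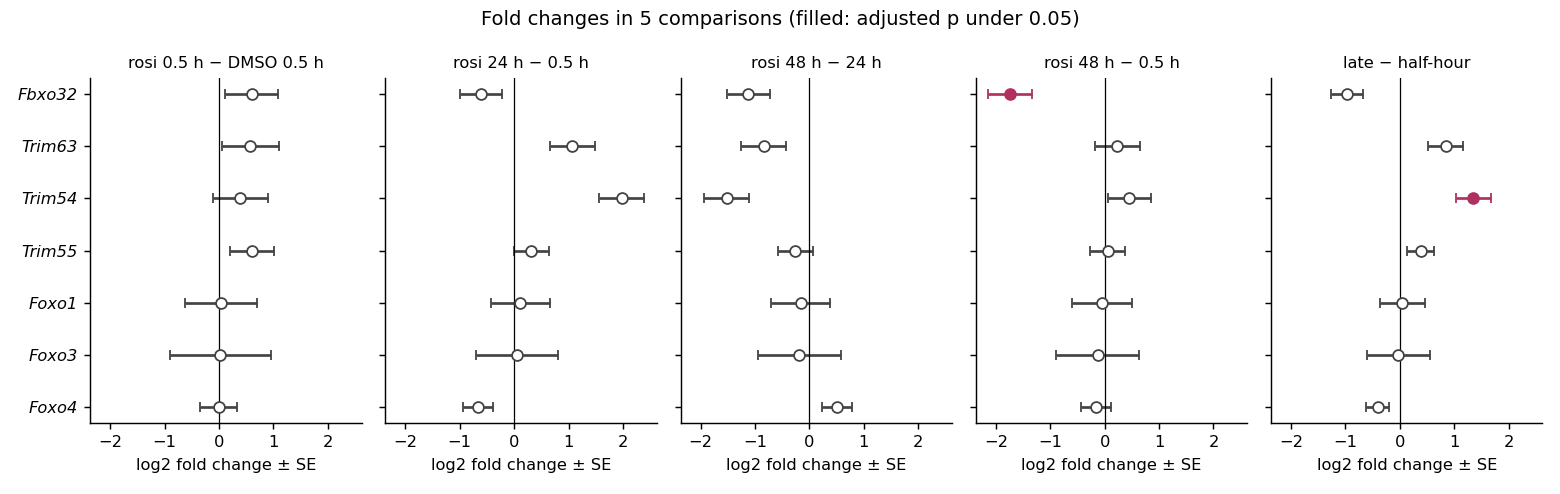
Log2 fold change of each gene (horizontal axis, points) with its standard error (bars) in the 5 comparisons of the edgeR fit, with filled points for an adjusted p under 0.05. The filled points are Fbxo32 at -1.74 for 48 h against 0.5 h and Trim54 at 1.35 for late against early libraries.

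The ratio of Trim63 to Fbxo32 counts, which needs no library scaling, was 0.888 in DMSO, 0.928 and 0.828 at 0.5 h of rosiglitazone, 3.98 and 2.06 at 24 h, and 2.89 and 3.72 at 48 h. Every late library was above every early one, and the 3 early libraries were close to each other. With 4 late and 3 early libraries an exact two-sided permutation test cannot go below p = 0.0571, so it cannot decide here. Late and early libraries were also apart for many single genes, higher for 14.2% and lower for 19.5% of all genes. The share over all ratios of 2 genes was not counted, and the separation is a description. The ratio of Trim63 to Trim55 was 0.228 in DMSO, 0.215 and 0.234 at 0.5 h, 0.521 and 0.281 at 24 h, and at 48 h 0.193 and 0.292. Its late and early libraries overlapped.

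The 4 ligase transcripts and the cardiomyocyte markers moved unequally. Relative to the mean of the 3 early libraries, the summed cardiomyocyte markers were at 97.8% and 20.3% in the 24 h libraries and at 2.12% and 12.3% in the 48 h libraries. In the same order of libraries, Trim54 was at 437%, 419%, 89.0% and 209%. Trim63 was at 264%, 208%, 78.6% and 186%, and Trim55 at 114%, 167%, 91.5% and 143%. Fbxo32, at 58.3%, 88.7%, 23.9% and 43.9%, was below the MuRF genes in all 4 late libraries, yet above the markers in 3 of them. The single marker Actn2, the Z-disc α-actinin, was at 32.5%, 12.1%, 1.94% and 7.09%. In the first 24 h library the sum hid opposite moves of single markers. Tnni3 and Myl2, among others, were at 945 and 1013.4 CPM there, above all early libraries. Myh7 and Ryr2, among others, were at 716 and 76.0 CPM, below all early libraries.

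Per 1000 cardiomyocyte marker counts, Trim54 was at 6.46 counts in DMSO, 4.25 and 5.56 at 0.5 h, 23.4 and 108 at 24 h, and 220 and 89.1 at 48 h. Trim63 on the same scale was at 3.54, then 3.03 and 3.07, then 8.53 and 32.4, then 117 and 47.7. Trim55 was at 15.6, then 14.1 and 13.1, then 16.4 and 115, then 606 and 163. On this scale the 3 MuRF genes were higher in all 4 late libraries than in any early one. At 48 h all 7 genes were, at 3.50 to 47.3 times the mean of the early libraries. The marker counts they are divided by had gone down to 2.12% and 12.3%, and any gene that fell less than the markers is higher on this scale. How many of all genes are was not counted, so these counts do not set the 7 genes apart. Fbxo32 was at 3.99, then 3.26 and 3.71, then 2.14 and 15.7, then 40.6 and 12.8, so its direction at 48 h depends on the scale, lower in CPM and higher per marker count. The share of each gene's counts that came from cardiomyocytes was not tested.

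Among other muscle ligases, Trim72, Fbxl22 and Rnf207 were low in the libraries with few cardiomyocyte marker counts. Of the 18 genes on a list of other ubiquitin ligases of muscle, 4 fell from 0.5 h to 48 h and 0 rose, where 4.62% of all genes fell and 1.97% rose; the median log2 change was -0.14 against -0.07 over all genes. Trim72, the membrane repair protein MG53, was at 54.3 CPM in DMSO, 72.9 and 76.2 at 0.5 h, 62.9 and 6.41 at 24 h, and 0.549 and 2.32 at 48 h. It fell by 5.82 ± 1.19 log2 units at 48 h against 0.5 h (adjusted p = 0.0347). Fbxl22, an F-box protein of the cardiac Z-disc, fell by 4.80 ± 1.08 log2 units (adjusted p = 0.0449), and Rnf207, a cardiac RING finger protein, fell by 4.57 ± 1.07 (adjusted p = 0.0494).

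Fbxo40, a muscle F-box protein that targets Irs1, fell by 3.18 ± 0.65 log2 units (adjusted p = 0.0347). At 24 h it was at 4.24 and 9.46 CPM, lower in the library with more cardiomyocyte marker counts. At 48 h it was at 1.06 and 1.40 CPM. These 4 calls became 0 without either 0.5 h rosiglitazone library or without the first 48 h library, 1 without the second 48 h library, and 2 without the DMSO library or without the filter on low counts. Over the late against the early libraries, 1 of the 18 rose, the chaperone-linked ligase Stub1 (0.91 ± 0.24 log2 units, adjusted p = 0.0485), and 2 fell, Fbxo40 and Trim72, beside 4.11% of all genes higher and 7.29% lower. With so few calls these counts are close to the shares over all genes. Those 3 calls were 0 without the DMSO library, either 0.5 h rosiglitazone library or the first 48 h library, and 1 without the second 48 h library; they were 6 without either 24 h library. With the libraries fitted as 2 groups, late and early, 1 of the 18 was called higher and 0 lower. In both comparisons, calls over all genes also became fewer without any 1 of the early or 48 h libraries and more without either 24 h library.

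**Figure D3:**
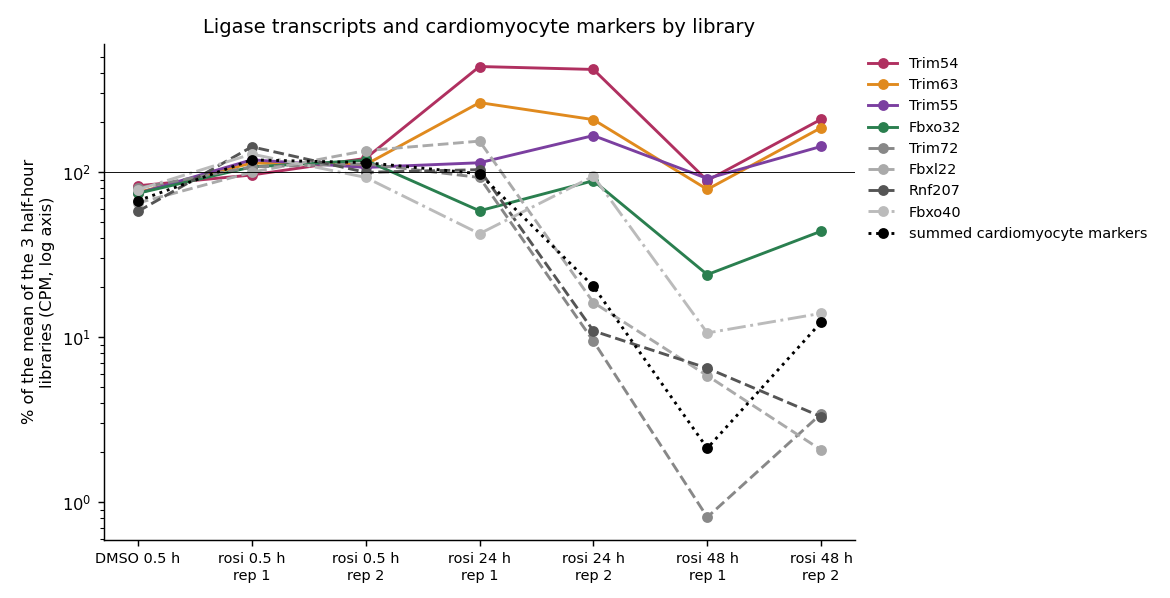
Level in each library as a percentage of the mean of the 3 libraries of 0.5 h (vertical axis, log scale) for the 4 ligases, 4 other muscle ligases and the summed cardiomyocyte markers; lines only join the points of a gene. In the 48 h libraries Trim54, Trim63 and Trim55 lie between 78.6% and 209%, Fbxo32 at 23.9% and 43.9%, and the summed markers at 2.12% and 12.3%.

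Among the FoxO transcripts the departures from the other libraries came at 24 h. Foxo4 was at 62.1 CPM in DMSO, 59.9 and 63.9 at 0.5 h, 43.9 and 34.3 at 24 h, and 52.0 and 59.4 at 48 h. Both 24 h libraries were below all others, a pattern whose share over all genes was not counted. The difference from 0.5 h was -0.66 ± 0.28 log2 units (1.58-fold, adjusted p = 0.309), which did not pass. All 4 late libraries were below the 3 early ones, as was true of 19.5% of all genes, with a difference of -0.41 ± 0.21 (adjusted p = 0.246).

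Foxo3 showed the largest disagreement between replicate libraries among the 7 genes. It was at 32.7 CPM in DMSO, 32.4 and 34.0 at 0.5 h, 7.91 and 61.1 at 24 h, and 30.7 and 30.0 at 48 h. The 24 h libraries lay below and above everything else, 7.65-fold or 2.94 log2 units apart, a gap larger than that of 90.0% of genes tested. The splits of each library agreed, with 89 and 92 counts in the first 24 h library and 827 and 794 in the second. The mean therefore hid the spread, and the difference between 24 h and 0.5 h was 0.06 ± 0.76 log2 units (adjusted p = 0.983). Without the second 24 h library it was -2.09, and without the first 24 h library it was 0.88, each from a lone 24 h library. In the fit without the second 24 h library, the log2 changes of Foxo3 were 1.93 for 48 h against 24 h and -1.11 for late against early.

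Foxo1 followed Foxo3 at smaller size. It was at 12.0 CPM in DMSO, 13.7 and 10.9 at 0.5 h, 6.91 and 19.6 at 24 h, and 13.0 and 10.7 at 48 h. Its 24 h libraries were 2.82-fold apart and again below and above all others, and its difference between 24 h and 0.5 h was 0.11 ± 0.54 log2 units (adjusted p = 0.944). The ratio of Foxo3 to Foxo1 counts was 2.73 in DMSO, 2.37 and 3.13 at 0.5 h, 1.15 and 3.12 at 24 h, and 2.36 and 2.81 at 48 h, with the first 24 h library the lowest.

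The 24 h libraries of Foxo1 and Foxo3 lay further apart than those of the other 5 genes. Over all genes tested, the median size of the difference between replicate libraries was 0.30, 0.67 and 0.44 log2 units at 0.5, 24 and 48 h. At 24 h Trim54 differed by -0.06, Trim63 by -0.34 and Foxo4 by -0.35, with the second library the lower. Fbxo32 differed by 0.60 and Trim55 by 0.55, in the direction of Foxo1 and Foxo3. The sizes of all 5 were under that median. At 48 h the order turned, with Trim63 and Trim54 at 1.24 and 1.23, above 80.2% and 80.0% of genes, and Foxo3 at -0.03. The share of counts from mitochondrial genes was 3.29% and 0.801% in the 24 h libraries and 0.900% and 0.604% at 48 h, against 2.04% to 2.24% in the early libraries. Its part in these replicate differences was not tested.

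**Figure D4:**
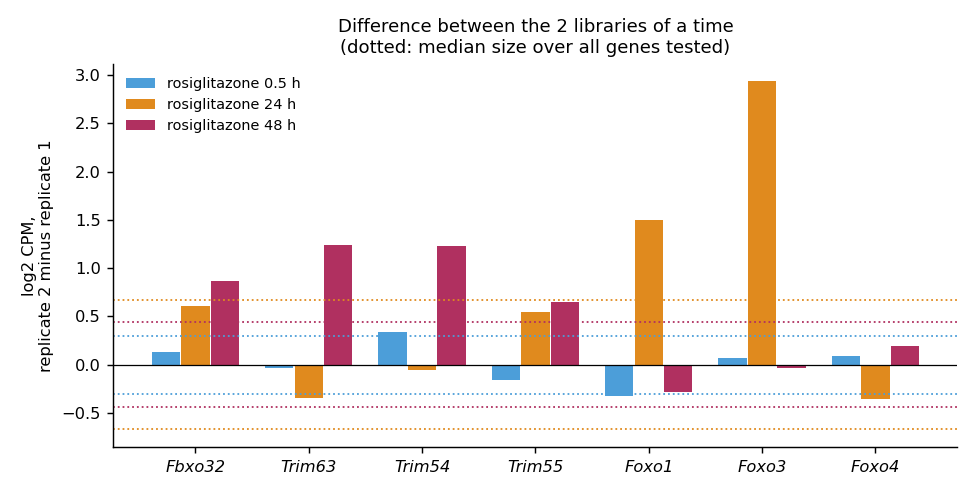
Difference between the 2 libraries of each rosiglitazone time (vertical axis, log2 CPM of replicate 2 minus replicate 1) for the 7 genes, with dotted lines at the median size over all genes tested. Foxo3 reaches 2.94 and Foxo1 1.49 at 24 h, while Trim63 and Trim54 reach 1.24 and 1.23 at 48 h.

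Drug and vehicle can be compared at 0.5 h alone. With 1 DMSO library, a drug effect cannot be told apart from other differences of that library. All 4 ligases were higher in both rosiglitazone libraries than in DMSO, by 0.60 ± 0.48 log2 units for Fbxo32, 0.58 ± 0.52 for Trim63, 0.39 ± 0.50 for Trim54 and 0.60 ± 0.41 for Trim55. No adjusted p was under 1 in edgeR, where 0% of all genes passed; 95 genes had an unadjusted p under 0.05, and DESeq2 called 2. Libraries did not overlap, in the higher direction, for 30.2% of all genes. The cardiomyocyte markers moved alongside, from 8698.7 CPM in DMSO to 15389.2 and 14814.3, as did 8 macrophage markers in the other direction, from 501 to 147 and 186 CPM. The part of either in the ligase difference was not tested. The FoxO genes differed by 0.03 ± 0.66 for Foxo1, 0.02 ± 0.93 for Foxo3 and -0.004 ± 0.34 for Foxo4, signs that turned under other settings, and their libraries overlapped.

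The authors' deposited tables, in which the 2 splits of a library stand as separate columns, carry more calls. In the authors' deposited table for rosiglitazone against DMSO at 0.5 h, 11.0% of genes with an adjusted p were under 0.05, among them Fbxo32 (log2 fold change 0.56), Trim55 (0.58) and Trim63 (0.55), but not Trim54 (0.36, adjusted p = 0.0666). In the authors' deposited table for 24 h against 0.5 h, with 39.0% under 0.05, Trim54 (1.98) and Trim63 (1.08) were higher and Fbxo32 (-0.58) and Foxo4 (-0.64) lower. In the authors' deposited table for 48 h against 24 h, with 16.5% under 0.05, Trim54 (-1.40) and Fbxo32 (-1.05) were lower and Foxo4 (0.49) higher. The directions of these genes were those of the fit on summed splits, where none of these differences passed.

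Across the 7 libraries the log2 CPM values of Trim63 and Trim54 had a Pearson r of 0.95, and Foxo1 and Foxo3 one of 0.93. Fbxo32 had 0.06 to 0.23 with each of the other 6 genes, and Trim54 and Foxo4 had -0.79. These are descriptions over libraries that share groups and depth. Among 10093 genes searched, the 3 most like Fbxo32 were Nedd4l, a HECT ubiquitin ligase of ion channels (r = 0.98), Lpin1, a phosphatidate phosphatase (0.98), and Sugp2 (0.97). Lpin1 was at 15.7 CPM in DMSO, 20.2 and 20.2 at 0.5 h, 12.7 and 17.5 at 24 h, and 8.45 and 13.5 at 48 h.

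Nearest to Trim54 were Hmox2, a heme oxygenase (0.98), Cpt1b, the muscle carnitine palmitoyltransferase (0.97), and Vps45 (0.97). Cpt1b was at 77.2 CPM in DMSO, 88.5 and 98.5 at 0.5 h, 251 and 190 at 24 h, and 93.9 and 161 at 48 h. Nearest to Trim63 were Mff, a mitochondrial fission factor (0.99), Fam179a (0.99) and the mitochondrial ribosomal protein gene Mrps7 (0.97), and nearest to Trim55 were Lrrc14 (0.98), Sfxn4 (0.97) and Ubn2 (0.96). The genes most like Foxo3 were Sh3pxd2b (0.99), Vps13a (0.98) and Rmnd5a (0.98). Each of them was split at 24 h as Foxo3 was, with Vps13a at 6.86 and 106 CPM, which follows from picking them by likeness to Foxo3. Foxo1 was followed by Smcr8 (1.00), Mtr (0.99) and Iws1 (0.99), and Foxo4 by Chn1, Lrsam1 and Scarf2 (0.98 each).

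Known targets of FoxO in autophagy, stress defence and growth arrest included genes that rose late, while no FoxO transcript passed. Of 25 listed targets, all tested, 9 rose and 0 fell in the late against the early libraries, beside 4.11% of all genes higher and 7.29% lower. The median log2 change of the list was 0.43 against -0.07 over all genes. This list, like the others, was chosen with earlier results of these data known, so these shares are only a description. Gadd45a, a growth arrest and DNA damage gene, was at 60.6 CPM in DMSO, 69.2 and 70.1 at 0.5 h, 203 and 358 at 24 h, and 516 and 411 at 48 h. It rose by 2.44 ± 0.27 log2 units (5.42-fold, adjusted p = 0.00519). Ddit4, an inhibitor of mTORC1, was at 37.8 CPM, then 42.1 and 44.3, then 90.7 and 110, then 275 and 226, and rose by 1.94 ± 0.21 (adjusted p = 0.00450). Sod2, the mitochondrial superoxide dismutase, was at 295 CPM, then 175 and 216, then 532 and 418, then 2532.8 and 1190.1, a rise of 2.07 ± 0.32 (adjusted p = 0.0113).

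Klf15, a transcription factor of muscle metabolism, rose from 12.8 to 17.5 CPM in the early libraries to 34.2 to 50.1 in the late ones (1.44 ± 0.24, adjusted p = 0.0133). The transcriptional repressor Bcl6 rose by 1.56 ± 0.21 (adjusted p = 0.00704). The mitophagy receptor Bnip3 rose by 1.56 ± 0.31 (adjusted p = 0.0229), and Gabarapl1, a protein of autophagosome membranes, by 1.09 ± 0.23 (adjusted p = 0.0276). Catalase, Cat, rose by 0.93 ± 0.20 (adjusted p = 0.0266), and Atg12, which is conjugated to Atg5 in autophagy, by 0.83 ± 0.21 (adjusted p = 0.0431). For all 9, the late libraries lay above the early ones, as for 14.2% of all genes; the 9 were named for passing this same comparison, so their separation is a description.

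The 9 calls became fewer without any 1 of the early or 48 h libraries and more without either 24 h library. Higher calls over all genes changed in the same direction in each of these fits. At 48 h against 0.5 h, where 1.97% of all genes rose, 6 of the 25 rose: Gabarapl1, Sod2, Bcl6, Gadd45a, Klf15 and Ddit4. These calls were lost without either 0.5 h rosiglitazone library or the first 48 h library, and fewer without the second 48 h library. They were more without either 24 h library, and 10 with DESeq2 as the test or with only these 2 times in the fit. Higher calls over all genes changed in the same direction in each of these fits. DESeq2 as the test also called 2 of the 25 lower at 48 h against 0.5 h, and 1 in the late against the early libraries. Several of the genes that rose have other known regulators, and the cardiomyocyte marker sum went down while they rose. The part of either was not tested.

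**Figure D5:**
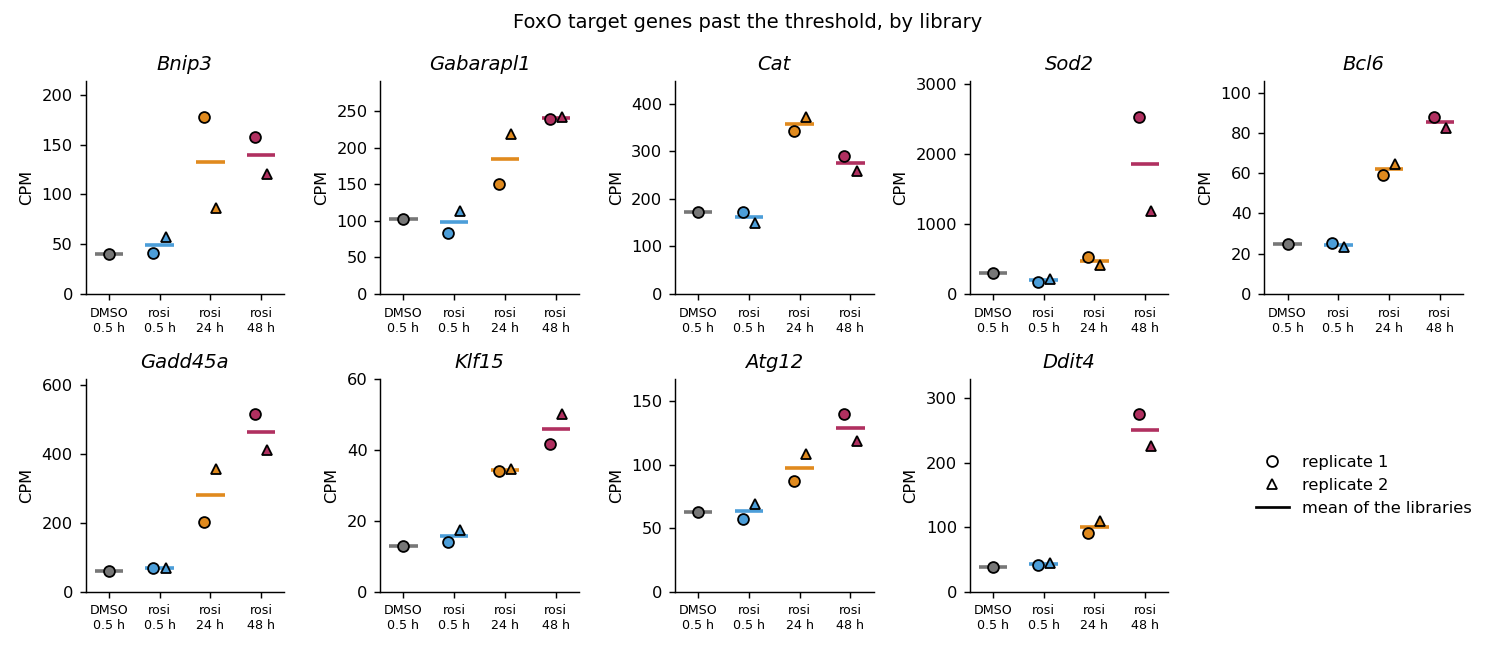
Level in CPM (vertical axes, starting at 0) of the 9 listed FoxO targets past the threshold in late against early libraries; circles are replicate 1, triangles replicate 2 and bars the mean of the libraries. In every panel the 4 late libraries lie above the 3 libraries of 0.5 h, from 60.6, 69.2 and 70.1 CPM to between 203 and 516 CPM for Gadd45a.

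Of 19 genes of insulin and AKT signalling upstream of FoxO, 3 fell in the late libraries and 0 rose, beside 7.29% of all genes lower and 4.11% higher; the median log2 change was -0.32 against -0.07 over all genes. Irs1, the insulin receptor substrate, was at 50.4 CPM in DMSO, 62.3 and 53.8 at 0.5 h, 12.9 and 17.5 at 24 h, and 6.73 and 12.4 at 48 h. It fell by 2.21 ± 0.29 log2 units (4.61-fold, adjusted p = 0.00711). The growth factor gene Igf2 fell by 1.57 ± 0.29 (adjusted p = 0.0183), and Sgk1, a kinase that also phosphorylates FoxO proteins, fell by 1.14 ± 0.27 (adjusted p = 0.0391). Sgk1 was at 97.7 CPM in DMSO, 47.7 and 54.6 at 0.5 h, 38.8 and 21.1 at 24 h, and 31.3 and 23.9 at 48 h. The 3 calls became fewer without any 1 of the early or 48 h libraries and more without the second 24 h library. Lower calls over all genes changed in the same direction in each of these fits. At 48 h against 0.5 h, Irs1 fell by 2.61 ± 0.40 (adjusted p = 0.0161) and Igf2 fell by 2.39 ± 0.40 (adjusted p = 0.0197). These 2 calls were lost without either 0.5 h rosiglitazone library or the first 48 h library. They were fewer without the second 48 h library and more without the second 24 h library. Lower calls over all genes moved likewise.

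Among 15 FoxO cofactors and modifiers, 1 fell and 0 rose, a share close to the 7.29% of all genes that fell, and the median log2 change was -0.057 against -0.071 over all genes. The gene that fell was Ppargc1a, the coactivator PGC-1α, at 12.4 CPM in DMSO, 14.6 and 20.7 at 0.5 h, 4.24 and 2.26 at 24 h, and 1.90 and 1.86 at 48 h. It fell by 2.66 ± 0.40 log2 units (6.33-fold, adjusted p = 0.00999), and the call was lost without either 0.5 h rosiglitazone library. More of the 15 passed without either 24 h library, as did more of all genes. Foxo6, the remaining FoxO gene, had 33, 25 and 64 counts in the early libraries and 0, 0, 6 and 0 in the late ones (adjusted p = 0.0850). The AMPK subunit gene Prkaa2 differed by -1.17 ± 0.50 log2 units (adjusted p = 0.172).

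Of 18 tested genes among other known inducers of the muscle ligases, Cebpb rose and Inhba fell, 1 gene each way, which is close to the 4.11% higher and 7.29% lower over all genes. Cebpb, a transcription factor reported to act on the Fbxo32 gene, was at 54.2 CPM in DMSO, 42.0 and 60.9 at 0.5 h, 125 and 156 at 24 h, and 343 and 325 at 48 h, a rise of 2.05 ± 0.23 log2 units (adjusted p = 0.00519). Inhba, the activin A subunit gene, was at 34.2 CPM, then 57.6 and 43.1, then 16.1 and 22.0, then 18.7 and 10.0, and fell by 1.41 ± 0.30 (adjusted p = 0.0274). The call for Cebpb held without any 1 library, and that for Inhba was lost without either 0.5 h rosiglitazone library or the second 48 h library. The paralogue Cebpd was 1.16 ± 0.33 higher (adjusted p = 0.0617).

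Of 14 tested genes of the SCF and ubiquitin machinery, 2 rose and 0 fell, beside 4.11% of all genes higher and 7.29% lower, with a median of 0.37 against -0.07 over all genes. Among them Rbx1, the RING subunit that SCF ligases such as the Fbxo32 complex use, rose by 1.01 ± 0.24 log2 units (adjusted p = 0.0395). The ubiquitin-like modifier gene Nedd8, which activates cullins, was 0.86 ± 0.27 higher (adjusted p = 0.0877). The 2 calls were lost without the DMSO library, either 0.5 h rosiglitazone library or the second 48 h library. They were fewer without the first 48 h library, 1 with DESeq2 size factors, and more without the second 24 h library. In the fits without a library, higher calls over all genes changed in the same direction.

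The substrates and partners of the ligases in the sarcomere include 6 of the cardiomyocyte markers, Myh6, Myh7, Tnni3, Mybpc3, Myl2 and Myl3. Of 18 tested, 6 fell and 1 rose in the late libraries, beside 7.29% of all genes lower and 4.11% higher, and the median log2 change was -1.64 against -0.07 over all genes. Myh6, the α-myosin heavy chain, was at 963 CPM in DMSO, 1211.9 and 1208.5 at 0.5 h, 385 and 90.4 at 24 h, and 10.2 and 33.0 at 48 h, and fell by 3.97 ± 0.59 (adjusted p = 0.00946). Tcap, the titin cap protein, fell by 3.63 ± 0.55 (adjusted p = 0.0101). The log2 changes of Myh7, Mybpc3 and Myl3 were -3.88 ± 0.76, -3.15 ± 0.71 and -2.55 ± 0.65 (adjusted p = 0.0215, 0.0324 and 0.0464). Ckmt2, the mitochondrial creatine kinase, was also called lower, with 123, 69 and 114 counts in the early libraries, 64 and 37 at 24 h and 0 in both 48 h libraries.

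The 1 gene that rose was Sqstm1, the autophagy receptor p62, which binds ubiquitin and the MuRF proteins. It was at 589 CPM in DMSO, 435 and 551 at 0.5 h, 2004.0 and 2967.7 at 24 h, and 2611.8 and 2902.4 at 48 h, a rise of 2.32 ± 0.27 (5.01-fold, adjusted p = 0.00537). The call for Sqstm1 held without any 1 library. The 6 lower calls became fewer without any 1 of the early or 48 h libraries and more without the first 24 h library. Lower calls over all genes changed in the same direction in each of these fits. The 6 lower calls were 1 with the libraries fitted as 2 groups, late and early, 3 without the filter on low counts and 10 with DESeq2 as the test. At 48 h against 0.5 h, 10 of the 18 fell and 1 rose, beside 4.62% and 1.97% of all genes, with a median of -2.94. The 10 lower calls were lost without either 0.5 h rosiglitazone library or the first 48 h library. They were fewer without the second 48 h library, and 4 without the filter on low counts. Over all genes, lower calls also became fewer without any 1 of these libraries.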

How the data were processed

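Strand-keeping libraries were made from total RNA of neonatal rat ventricular myocytes, per the labels' protocols. Without giving roles, the submitters' processing notes list the builds Rnor_6.0 and hg19 and the tools HTSeq, DESeq2, cutadapt 1.11 and FastQC 0.11.5; the aligner is not given in the sources used here. The authors deposited raw read counts per gene and sample. Per the file headers, the tables also hold the authors' mean normalised signal, log2 fold change with its standard error, test score, p-value and adjusted p-value. The signal and the score were not used.

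Of 33005 rows per table, 460 repeat a gene, and each gene was used once. Counts of the 4 libraries found in 2 tables were equal there. Chi-square tests between splits gave 0.964 to 1.02 per degree of freedom (smallest p = 0.112), so the 2 splits of each library were summed and counted as 1 replicate. The counts were fitted with edgeR 4.0.16 in R 4.3.3, in a single robust quasi-likelihood model of 4 groups with TMM scaling, its own low-count filter and 3 residual degrees of freedom. P-values were adjusted over 15655 genes by the Benjamini-Hochberg method, with a threshold of 0.05. Late against early compares the mean of the 24 h and 48 h coefficients with the DMSO and rosiglitazone coefficients at 0.5 h, weighted by libraries. SE is the log2 fold change divided by the square root of F. Log2 CPM for correlations used a prior count of 2. The fit was tested on simulated data.

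The 7 genes and the lists were chosen with earlier results of these data known. Of 195 entries in 7 pathway and 8 marker lists, 190 were matched, 1 through a synonym; Ttn, Myh1, Col1a2 and Pecam1 were among those not matched. For 3 symbols with more than 1 gene ID the row with most counts was used. Listed genes are named where they passed in any comparison, or, with fewer than 3, by smallest unadjusted p up to 3; 1 such gene is not reported here. The genes most alike are the 3 with the highest Pearson r among genes with a mean of at least 5 CPM. Endothelial, smooth muscle, epicardial and red blood cell markers summed to 35.0 to 186, 272 to 4535.3, 32.0 to 208 and 107 to 423 CPM, and skeletal muscle markers to 8.89 to 138. Alternatives were DESeq2 1.42.0 as the test, its size factors, no filter, a stricter filter (mean of 5 CPM), splits as replicates, only the groups compared, a replicate block and leaving out each library. Levels were not compared between genes, because the files give no transcript lengths. Counts without molecular identifiers are not independent molecules, so a count of 0, which allows up to 3 counts (0.276 CPM in the shallowest library), covers counting error only.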

Additional observations from a re-analysis of the deposited data

How the results depend on the processing

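Values below are in the order 0.5 h rosiglitazone against DMSO, 24 h against 0.5 h, 48 h against 24 h, 48 h against 0.5 h, and late against early libraries, where the edgeR fit called 0, 15, 0, 1031 and 1786 genes. DESeq2 as the test called 2, 1212, 492, 2547 and 3337. With each split as its own replicate, 78, 5629, 2890, 6943 and 7936 genes were called, splits being reads of the same library. With no filter on low counts the first 3 comparisons gave 1, 334 and 19. With only the groups compared in the fit, 0.5 h against DMSO gave 174, 24 h against 0.5 h gave 0 and 48 h against 0.5 h gave 2733. Leaving out each replicate in turn gave 0 in the first comparison and 0 to 1008, 0 to 509, 12 to 2706 and 288 to 3569 in the others. The causes were not tested.

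Groups share replicate numbers, but the replicate differences correlated by -0.08, 0.06 and -0.12 between times, so the numbers are only names. A replicate block gave 1, 407 and 785 calls for 24 h against 0.5 h, 48 h against 0.5 h and late against early. Under it Trim54 (late against early) and Fbxo32 (48 h against 0.5 h) had an adjusted p of 0.0762 and 0.0628, and Trim54 had 0.0688 with only the groups compared. Under the block the lower calls among sarcomere genes were 2 in each of these comparisons, those among other muscle ligases 1 at 48 h and 0 late, and the SCF list had 0 calls. The FoxO targets had 4 higher calls at 48 h and 6 late under the block.

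Of the alternative values for the 7 genes, 418 kept direction and side of the threshold, 33 changed sign, 19 newly passed and 13 no longer passed. None of the sign changes concerned Fbxo32. Under the block the log2 changes of Foxo1 and Foxo3 at 0.5 h against DMSO were -0.085 and -0.38, those of Foxo3 were -0.32 for 24 h against 0.5 h and 0.21 for 48 h against 24 h, and that of Foxo1 was -0.039 for late against early. Foxo4 at 0.5 h against DMSO was 0.00062 with DESeq2 size factors and with DESeq2, 0.0059 without the filter, 0.010 with the stricter filter and 0.0076 under the block.

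Leaving out 1 replicate moved the log2 changes as follows. At 0.5 h against DMSO, Foxo1 ranged from -0.14 to 0.19, Foxo3 from -0.011 to 0.058 and Foxo4 from -0.052 to 0.041. At 24 h against 0.5 h, Trim55 ranged from -0.0032 to 0.56, Foxo1 from -0.85 to 0.67 and Foxo3 from -2.09 to 0.88. At 48 h against 24 h, Trim55 ranged from -0.62 to 0.025, Foxo1 from -0.71 to 0.77 and Foxo3 from -0.999 to 1.93. At 48 h against 0.5 h, Trim63 ranged from -0.51 to 0.69, Trim54 from -0.29 to 0.91, Trim55 from -0.30 to 0.31 and Foxo1 from -0.24 to 0.10. For late against early, Foxo1 ranged from -0.45 to 0.32 and Foxo3 from -1.11 to 0.38.

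The 77 alternative values of late against early ratios, between the genes and to marker counts, moved by less than the spread between replicates, and 1 changed sign, Foxo3 to Foxo1, at 0.011 log2 units without the first 24 h library against -0.30. In a single library the direction could depend on the denominator: in the first 24 h library Fbxo32, Foxo1 and Foxo4 were at 0.586, 0.545 and 0.677 times the early mean per marker count and at 1.80, 1.69 and 2.11 times per Actn2 count. Titin counts were planned as a denominator and not run, since no row carries that symbol. Of the values for listed genes, 368 kept their side of the threshold, 113 no longer passed and 34 newly passed. DESeq2 size factors moved the median of all genes by at most 0.022 log2 units. Comparisons rest on 2 libraries a time and 1 for DMSO; the effect of depth on the calls was not tested.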
